A study of Mus musculus with 2 samples.

Results

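The 10 genes described here encode parts of the NF-kappaB pathway or are among its known targets. Nfkb1 and Nfkb2 encode subunits, Nfkbia and Nfkbiz proteins of the IkappaB family, Ikbkb a kinase and Traf6 an adaptor. Birc3, Bcl2a1a, Tnf and Icam1 are targets. They were chosen by name from the 468 genes counted in the series, with no cut on levels. Earlier results of these data were known when they were chosen. All 10 were counted under 3 of the 4 sample tags, and 8 of them under tag 1, whose 396 genes lack Nfkbia and Nfkbiz.

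The cells came from tumours of 4T1, a mouse mammary carcinoma line that recruits many neutrophils, and were measured with a targeted immune panel on 2 cartridges. The study asked how antibodies against PD-1, an inhibitory receptor of T cells, and Siglec-E, which binds sialic acids and restrains mouse myeloid cells, alter the tumour. In the anti-PD-1 pool, 1 cartridge held cells of mice given anti-PD-1 alone and of mice given anti-PD-1 with anti-Siglec-E, under tags 3 and 4. In the pool without anti-PD-1, the other cartridge held cells of mice given isotype antibody and of mice given anti-Siglec-E alone, under tags 1 and 2. Within a cartridge the tags are not tied to arms by the labels, and values are therefore printed tag by tag. All groups were female BALB/c mice aged 8 weeks that carried 4T1 cells in a mammary fat pad. Treatment began on day 7, at a tumour volume near 70 mm3. There were 6 mice in each of the 4 arms, and tumours of 2 of them were pooled, so single animals cannot be told apart. EPCAM-positive and EPCAM-negative cells were recombined at 1 to 4, which set the share of epithelial cells.

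NF-kappaB is a family of dimeric transcription factors held inactive in the cytoplasm by IkappaB proteins. Receptors for interleukin 1 and microbial products, through the adaptor TRAF6, and TNF receptors, through related proteins, act on the IKK kinase complex, which marks IkappaB for destruction and frees the dimers. The freed dimers switch on cytokines, adhesion molecules and survival genes, and also the genes of their own inhibitors, which close a feedback loop. In neutrophils and macrophages this pathway drives inflammatory cytokines and prolongs survival.

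RefSeq promoters (build GRCm38.p6) were found for 7 of the 10 genes. No promoter was found for Nfkb1, Nfkbiz and Ikbkb. Each window of 250 bases before to 50 bases after a start site was searched on both strands for the NF-kappaB consensus of 10 bases. Matches stood in 5.805% of 32851 promoters, in 6.55% of 27025 genes with a promoter and in 11.9% of the 344 panel genes with one. Among the members, 2 of the 7 held a match: Nfkbia with 1 and Nfkb2, which has 3 listed starts, with at least 1 at every start. The 250 bases upstream of the start are printed, 5′ to 3′ on the strand of the gene, for the genes with a match and for 3 targets that the results turn on. Capitals mark the matches. Nfkbia lies at chr12:55492648-55492897 (minus strand) with its match starting at -29. The first start of Nfkb2 is at chr19:46304487-46304736 (plus strand), with matches starting at -39 and -11. Icam1 is at chr9:21015690-21015939 (plus), Bcl2a1a at chr9:88956670-88956919 (plus) and Tnf at chr17:35202008-35202257 (minus).
Nfkbia: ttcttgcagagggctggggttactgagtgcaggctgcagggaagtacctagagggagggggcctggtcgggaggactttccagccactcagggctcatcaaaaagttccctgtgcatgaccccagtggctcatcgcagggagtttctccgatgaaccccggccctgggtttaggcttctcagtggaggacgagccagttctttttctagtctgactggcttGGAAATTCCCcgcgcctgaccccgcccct
Nfkb2: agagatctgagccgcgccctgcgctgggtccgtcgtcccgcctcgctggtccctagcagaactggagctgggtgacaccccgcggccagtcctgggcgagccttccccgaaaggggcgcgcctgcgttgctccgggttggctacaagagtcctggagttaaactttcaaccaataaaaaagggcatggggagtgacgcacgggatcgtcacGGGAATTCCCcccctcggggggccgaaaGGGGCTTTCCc
Icam1: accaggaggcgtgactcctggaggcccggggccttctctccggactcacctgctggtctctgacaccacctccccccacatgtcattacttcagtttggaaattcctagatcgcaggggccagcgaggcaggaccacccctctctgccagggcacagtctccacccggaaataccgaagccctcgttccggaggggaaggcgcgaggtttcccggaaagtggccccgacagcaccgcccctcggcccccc
Bcl2a1a: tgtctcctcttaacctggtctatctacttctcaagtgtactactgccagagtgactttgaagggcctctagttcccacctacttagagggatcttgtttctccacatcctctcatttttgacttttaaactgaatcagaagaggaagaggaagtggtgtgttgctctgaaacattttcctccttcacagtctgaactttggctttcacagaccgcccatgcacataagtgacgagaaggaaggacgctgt
Tnf: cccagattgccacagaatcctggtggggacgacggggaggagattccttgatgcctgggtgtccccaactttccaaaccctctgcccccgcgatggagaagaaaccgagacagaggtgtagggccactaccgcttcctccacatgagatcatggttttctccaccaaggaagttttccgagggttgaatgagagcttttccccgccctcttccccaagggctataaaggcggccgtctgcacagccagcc
The last 3 windows hold no match of these letters, which says nothing of sites written otherwise or lying elsewhere.

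The 12018 cells carried 12416134, 3074544, 5318288 and 2993684 molecules of the 396 shared genes in tags 3, 4, 1 and 2, with medians of 1262 to 1463 molecules per cell. Marker genes placed 9358 of these cells in 9 classes, and 22.1% stayed ungated. A total of 37 cell barcodes occurred on both cartridges and 0 in both tags of 1 cartridge. Neutrophil-gated cells, with S100a8 and other neutrophil genes, numbered 4208, 718, 1517 and 958 in tags 3, 4, 1 and 2. Further classes, each with 10 or more cells per tag, were C1q-positive macrophages (fewest 17), C1q-low monocytes or macrophages (49), CD4 T cells (24), CD8 T cells (15), NK cells (10) and tumour cells (90). Class names refer to the gates throughout. Epcam, the epithelial marker counted in tags 3, 4 and 2, stood at 12399, 11678 and 10082 CPM in tumour cells and at 121, 161 and 118 CPM in neutrophils. The CD4 T cells were rich in Foxp3, the regulatory T cell factor, at 2106 to 3755 CPM. Their gate took T cells with a molecule of Cd4 or Foxp3, so this level follows in part from the gate. Median depth without S100a8 was 4274 to 5557 molecules in C1q-positive macrophages, 2628 to 3681 in tumour cells, 893.5 to 937 in neutrophils and 593 to 846.5 in CD4 T cells.

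Levels are counts per 1000000 (CPM): molecules of a gene summed over the cells of 1 tag and class, per 1000000 molecules of the shared genes other than S100a8, which alone took 18.4 to 29.1% of each tag. Brackets give exact Poisson 95% intervals, which cover counting error only. Each pool is 1 cartridge and tags are not replicates, so no difference below was tested. Levels are compared between cells, never between genes.

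Of the subunit genes, Nfkb1 (chr3:135584655-135691547, minus strand, GRCm38), which encodes p105 and its product p50, was highest in CD4 T cells in every tag. It stood there at 4249.8 CPM (3935 to 4583) in tag 3, 4711 (4147 to 5329.6) in tag 4, 4694 (3935 to 5556) in tag 1 and 4403 (3759 to 5126) in tag 2. Neutrophils had the lowest Nfkb1 in every tag, with 563 CPM (541 to 586) in tag 3, 619 (566 to 676) in tag 4, 667 (629 to 708) in tag 1 and 696 (646 to 748) in tag 2. The CD4 T cell tags lay above those of all classes but NK cells, whose tag 1 reached 4385 CPM from 26 molecules. At an equal depth of 300 molecules per cell, Nfkb1 was found in 68.8, 64.9, 58.3 and 71.4% of CD4 T cells and in 13.7, 15.4, 15.0 and 15.6% of neutrophils. From NK cells down to tumour cells each class overlapped its neighbour in the order, and only neutrophils lay apart at the low end.

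Nfkb2 (chr19:46304320-46312385, plus strand), which encodes p100 and its product p52 of the alternative pathway, varied little between classes. Its class means ran from 150.2 CPM in C1q-positive macrophages to 359 CPM in CD4 T cells and NK cells, and no class lay clear of its neighbour in all tags. Neutrophils had 209, 236, 167 and 157 CPM of Nfkb2 in tags 3, 4, 1 and 2.

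Nfkbia (chr12:55489410-55492647, minus strand) encodes IkappaB-alpha, the inhibitor that NF-kappaB itself induces. Neutrophils had 37495 (37314 to 37676), 37182 (36759 to 37609) and 52087 (51649 to 52528) CPM of Nfkbia in tags 3, 4 and 2, the highest level of any class in each tag. C1q-low monocytes or macrophages followed at 22148, 25231 and 26912 CPM and CD4 T cells at 25637, 24319.6 and 22413 CPM, and these 2 classes overlapped. Tumour cells, CD8 T cells, C1q-positive macrophages and NK cells lay lower, between 11771 and 18405 CPM, and overlapped one another. The neutrophil tags lay above all tags of the next class.

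Nfkbiz (chr16:55811375-55838899, minus strand), which encodes the nuclear protein IkappaB-zeta, had the same leading class. Neutrophils had 11462 (11362 to 11563), 11146 (10915 to 11381) and 14115 (13888 to 14346) CPM of Nfkbiz in tags 3, 4 and 2, against 8329.9, 7608 and 6737 CPM in CD4 T cells, the next class. CD8 T cells spread widely, at 2167, 3484 and 7111 CPM. In tag 2, 79.7% of the CD8 T cell molecules of Nfkbiz came from 1 cell, and 2105 CPM remained without it. Mast cell or basophil markers summed to 21141 CPM in those CD8 T cells of tag 2, against 0 to 339.9 CPM in the other tags.

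In all, 3 of the 10 members had the same highest class in every tag. Among genes counted in all tags this was 1 of 8 members, against 48.0% of 375 panel genes, and among genes of tags 2 to 4 it was 2 of 2, against 56.3% of 71. The members had 1 leading class no more often than the panel. With S100a8 in the denominator only Nfkb1 kept 1 leading class in every tag. The lead of neutrophils in every tag for Nfkbia and Nfkbiz thus rests on leaving S100a8 out. Their log2 ratio of neutrophils over CD4 T cells fell no lower than 0.17 for Nfkbia and 0.07 for Nfkbiz under any alternative.

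The kinase gene Ikbkb (chr8:22659212-22706589, minus strand) encodes IKK-beta, which phosphorylates the IkappaB proteins. Neutrophils had the lowest Ikbkb in every tag, with 247 CPM (232 to 262) in tag 3, 249.7 (216 to 287) in tag 4, 279 (254 to 305) in tag 1 and 265 (235 to 298) in tag 2. Their tags lay below all tags of the next class, C1q-positive macrophages with 394 to 543 CPM. CD4 T cells, CD8 T cells and C1q-low monocytes or macrophages, with class means of 1078 to 1291 CPM, overlapped at the top. Traf6 (chr2:101678429-101701669, plus strand), which encodes the adaptor of interleukin 1 and Toll-like receptors, was lowest in tumour cells, at 52.0, 69.8, 84.4 and 51.0 CPM. Above them, neutrophils had 147, 139, 184 and 143 CPM, and the remaining classes overlapped between 113 and 506 CPM.

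**Figure D1:**
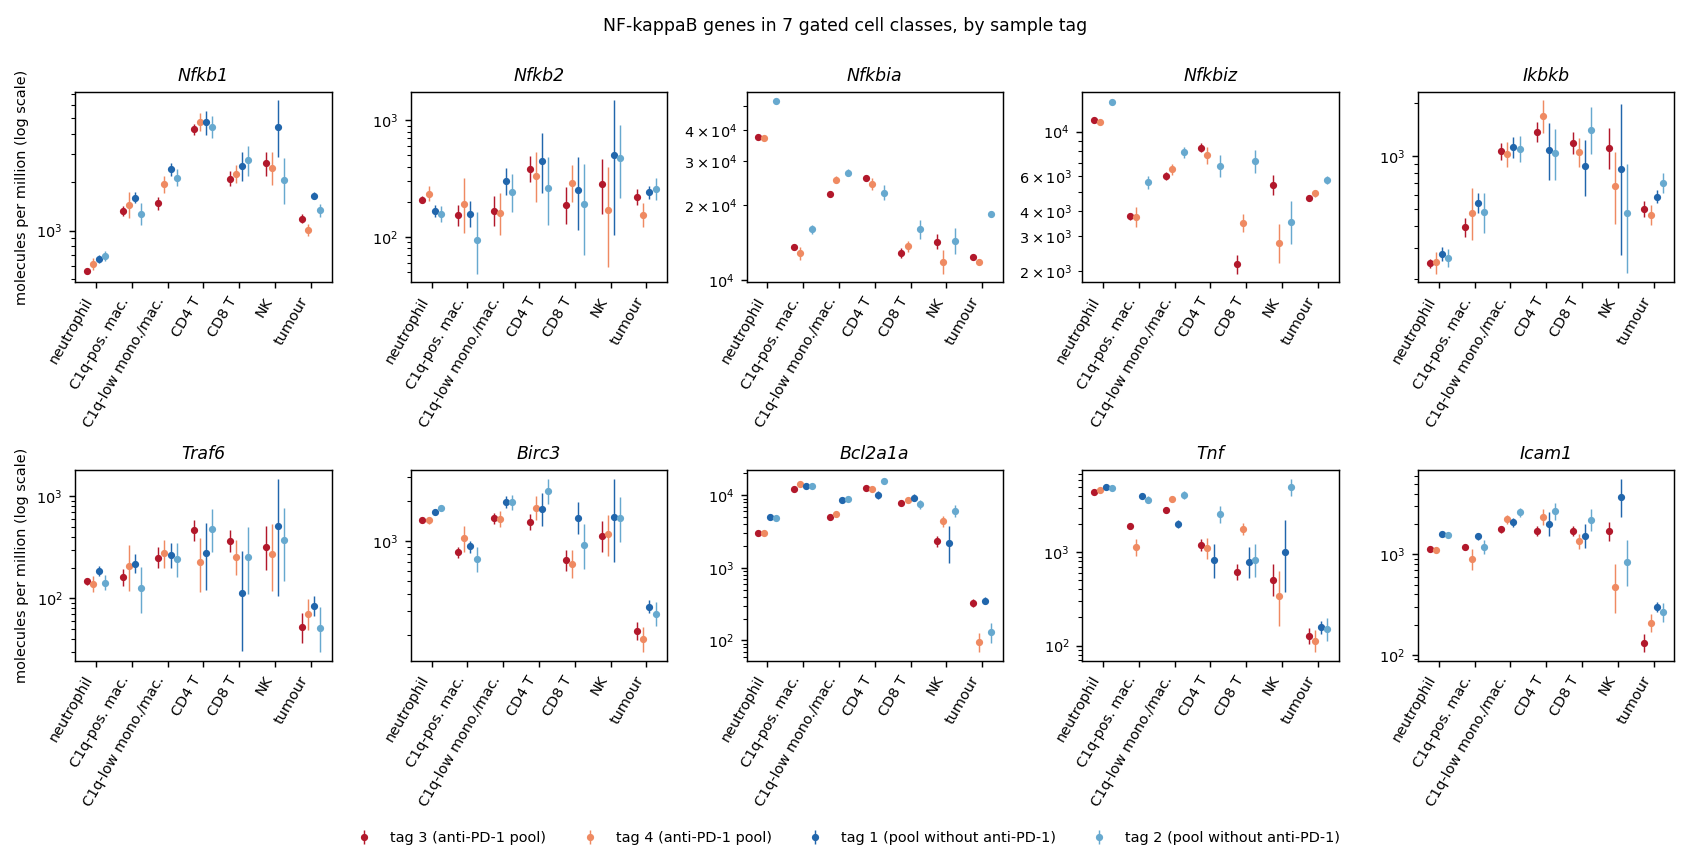
Levels of the 10 genes in 7 gated classes, in CPM on a log scale, with 1 point per sample tag and bars for the exact Poisson 95% interval. Nfkb1 was highest in CD4 T cells, Nfkbia and Nfkbiz were highest in neutrophils (not in every tag once S100a8 is in the denominator), and Birc3, Bcl2a1a, Tnf, Icam1 and Traf6 were lowest in tumour cells in every tag.

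Among the targets, Tnf (chr17:35199381-35202007, minus strand) encodes the cytokine TNF, at once a product and an inducer of the pathway. Neutrophils had 4419 CPM of Tnf (4357 to 4482) in tag 3, 4617 (4469 to 4769) in tag 4, 4975 (4869.6 to 5083) in tag 1 and 4921 (4787 to 5058) in tag 2, a narrow range. C1q-low monocytes or macrophages had 2863, 3734, 2021 and 4122 CPM and C1q-positive macrophages 1915, 1135, 3994 and 3664 CPM. Neutrophils led in 3 of the 4 tags. In tag 2 the NK cells had 5013 CPM, of which 95.8% came from 1 cell, and 473 CPM remained without it. Macrophage markers summed to 4008, 30794, 2867 and 55878 CPM in the NK cells of tags 3, 4, 1 and 2, and their part in that value was not tested beyond leaving out the cell.

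The anti-apoptotic target Bcl2a1a (chr9:88956900-88962419, plus strand) encodes the BCL2 relative A1. It was highest in C1q-positive macrophages in tags 4 and 1 and in CD4 T cells in tags 3 and 2. C1q-positive macrophages had 12066, 14175, 13529.5 and 13529 CPM of Bcl2a1a and CD4 T cells 12756, 12019.6, 10152 and 15490.3 CPM. Both lay above CD8 T cells, with 7463 to 9278 CPM. C1q-low monocytes or macrophages came next with 5094 to 8799 CPM, above neutrophils with 3050.0, 3045, 5048 and 4919 CPM. Bcl2a1a belongs to a family of near copies. Its transcript matches that of Bcl2a1d over 98.8% of 819 bases and that of Bcl2a1b over 98.2% of 817 bases, and the panel lists neither, so its molecules may come from any of them.

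Birc3 (chr9:7848699-7873186, minus strand) encodes cIAP2, a ubiquitin ligase of TNF receptor complexes. CD4 T cells, C1q-low monocytes or macrophages and neutrophils had similar Birc3, with class means of 1816, 1706 and 1567 CPM, and they overlapped. Icam1 (chr9:21015985-21028817, plus strand) encodes the adhesion ligand of the leukocyte integrin LFA-1. Its class means ran from 2192 CPM in CD4 T cells to 1194 CPM in C1q-positive macrophages with overlap at every step, and neutrophils had 1124, 1097, 1590.3 and 1572 CPM of Icam1.

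Tumour cells had the lowest level in every tag for 5 of the 8 members counted in all tags, Birc3, Bcl2a1a, Tnf, Icam1 and Traf6, against 9.60% of 375 genes, and for 0 of the 2 IkappaB genes, against 4.23% of 71. Icam1 stood there at 131 CPM (106 to 161) in tag 3, 207 (169 to 252) in tag 4, 298.8 (266 to 335) in tag 1 and 267 (214 to 329) in tag 2. The tumour cell level of Tnf was 2.88, 2.45, 3.17 and 3.05% of the neutrophil level in tags 3, 4, 1 and 2. The neutrophil gene S100a9 stood in tumour cells at 3.27 and 2.48% of its neutrophil level in tags 1 and 2 and lower, down to 1.09%, in tags 3 and 4, S100a8 at 0.794 to 1.73% and Csf3r at 1.13 to 1.30%. Tnf was near S100a9 in tags 1 and 2 and above it in tags 3 and 4, and no expression of Tnf by tumour cells is read from such levels. At 300 molecules per cell, 3.93, 1.95, 3.19 and 8.89% of tumour cells held a Tnf molecule, against 49.5, 50.1, 51.3 and 50.5% of neutrophils. Without thinning the shares were 14.0, 11.0, 20.3 and 28.9% of tumour cells and 69.5, 69.9, 71.3 and 68.6% of neutrophils, at the depths given above. Bcl2a1a was also near that background in tags 4 and 2, at 3.10 and 2.62% of the neutrophil level, and above it in tags 3 and 1, at 10.8 and 7.02%. The remaining members stood further above it. Tumour cells had 31.7 to 35.3% of the neutrophil level of Nfkbia, 40.5 to 44.1% of Nfkbiz, 12.9 to 19.6% of Birc3, 11.7 to 18.9% of Icam1, 35.4 to 50.3% of Traf6 and 66.2 to 164% of Nfkb2. For Nfkb1 and Ikbkb they had more than neutrophils, at 163 to 246% and 187 to 265%.

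Genes with the most similar pattern over 7 classes and 4 tags (28 points, or 21 without tag 1) were ranked by Spearman's rho, given as a description because points share libraries, cells and depth. Nfkb1 was most like Fyn (0.90), Mbp (0.90) and Cd2 (0.89). Nfkb2 was most like Nfkb1 (0.65), Foxo1 (0.64) and Dusp2 (0.63), all modest. For Nfkbia they were Nfkbiz (0.90), Xbp1 (0.83) and Tlr1 (0.77), and for Nfkbiz they were Xbp1 (0.92), Nfkbia (0.90) and Il6ra (0.72). Tnf was closest to Slc11a1, Il1b and Cd274 (0.88 each). Icam1 was closest to Ifnar1 (0.81), Fyb (0.81) and Runx3 (0.78), Birc3 to Icam1, Il4ra and Tnfrsf1b (0.70 each), and Bcl2a1a to Tnfrsf13b (0.81), Il7r (0.81) and Cx3cr1 (0.75). Ikbkb was closest to Nfkb1 (0.82), Itga4 (0.77) and Tmem173 (0.76), and Traf6 to Ighm (0.83), Il12rb2 (0.81) and Runx3 (0.81).

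Neutrophils were next split into 5 bins by the fraction of their molecules that came from S100a8, a calcium-binding alarmin. The bins ran from 1.00 to 9.52, 18.4, 29.5, 44.6 and 80.5%. The lowest bin held 796, 127, 340 and 201 cells in tags 3, 4, 1 and 2 and the highest 1004, 189, 230 and 141. Icam1 and Bcl2a1a were several-fold higher in cells low in S100a8, Traf6 and Nfkb2 less so, while Nfkbia was nearly level and Tnf had no shared direction. As S100a8 is left out of the denominator, its own share does not press the other genes down.

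Icam1 had the steepest gradient. From the lowest to the highest bin it stood at 2401, 1615, 1105, 723 and 337 CPM in tag 3 and at 1868, 1798, 1069.8, 913 and 391 CPM in tag 4. In tag 1 it stood at 3015, 1800.4, 1591, 831 and 539.6 CPM and in tag 2 at 2384, 2266, 1629, 773 and 468 CPM. Every one of the 4 steps was downward in every tag, and the log2 ratio of lowest over highest bin averaged 2.48 (2.26 to 2.83 over tags).

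Bcl2a1a followed, with 5324, 4119, 3662, 2233 and 1156 CPM in tag 3 and 4869.9, 4352, 3164, 1953 and 1964 CPM in tag 4. The bins of tag 1 held 8996, 5734, 4836, 3534 and 1543 CPM and those of tag 2 held 7656, 6682, 4516, 2960.1 and 1988 CPM. Only the last step of tag 4 was not downward, and the log2 ratio averaged 2.00 (1.31 to 2.54). Traf6 had 213 and 81.2 CPM in the lowest and highest bins of tag 3, 176 and 39.5 in tag 4, 224 and 105 in tag 1, and 197 and 109 in tag 2, a mean log2 ratio of 1.37 (0.84 to 2.15).

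**Figure D2:**
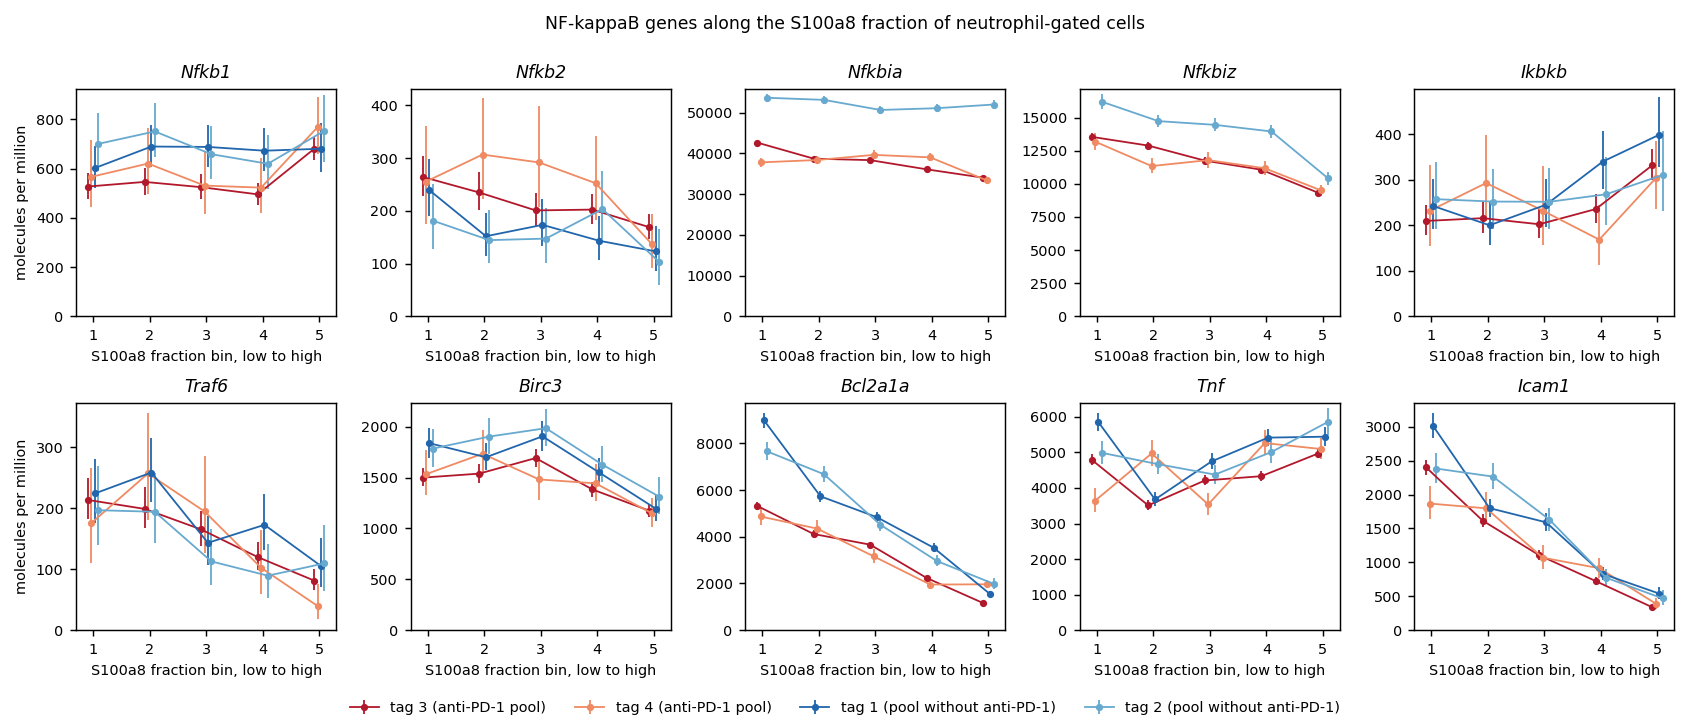
Levels of the 10 genes in neutrophils by bin of S100a8 fraction, low to high, in CPM with exact Poisson 95% intervals, 1 line per tag. Icam1 in tag 3 stood at 2401 CPM in the lowest bin and 337 CPM in the highest, while Nfkbia in tag 2 stood at 53632 and 51976 CPM.

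The subunit gene Nfkb2 had a mean log2 ratio of 0.83 (0.64 to 0.96), the IkappaB gene Nfkbiz 0.55 (0.47 to 0.64) and Birc3 0.46 (0.35 to 0.62), with Birc3 peaking in the third bin in 3 of 4 tags. Nfkbia had 0.18 (0.05 to 0.33), with 42636 and 34016 CPM in the lowest and highest bins of tag 3, 37777 and 33362 in tag 4, and 53632 and 51976 in tag 2. Tnf had -0.17, with a higher level in the lowest bin in tag 1 alone. Nfkb1 (-0.27) and Ikbkb (-0.51) were lower in the lowest bin in every tag.

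In all, 7 of the 10 members were higher in the lowest bin than in the highest in every tag, against 20.3% of the 355 measured genes, and 2 were lower in every tag, against 26.2%. Measured genes needed only 30 molecules, and those without a ratio in some tag could not count, while every member held at least the 1214 molecules of Traf6. The shares are therefore not matched to the abundance of the members. The mean difference was at least 2-fold upward for 3 members, Icam1, Bcl2a1a and Traf6, against 18.6% of genes. The median log2 ratio was 0.50 over the members and 0.02 over all measured genes. With S100a8 in the denominator all 10 members were higher in the lowest bin in every tag, but so were 50.4% of all measured genes, whose median log2 ratio was then 1.17. Nfkb1, Tnf and Ikbkb turned to log2 ratios of 0.87, 0.98 and 0.64, below that median, so the direction of these 3 rests on leaving S100a8 out.

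**Figure D3:**
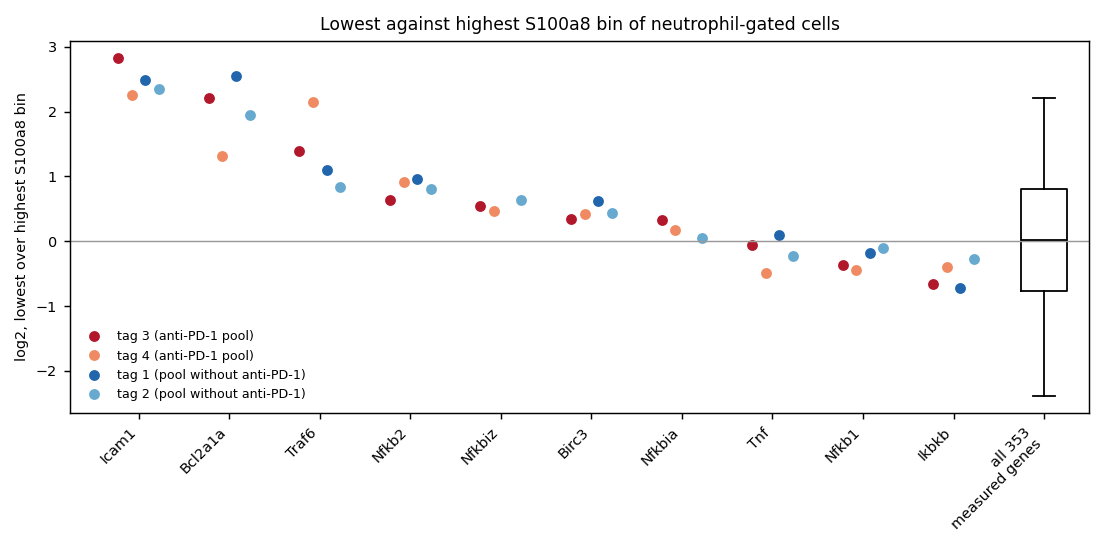
Log2 ratio of the lowest over the highest S100a8 bin in neutrophils, 1 point per tag, with a box (median and quartiles, whiskers to percentiles 5 and 95, further genes not drawn) for the 353 measured genes with a ratio. Icam1 and Bcl2a1a lie between 1.31 and 2.83. With S100a8 in the denominator Tnf, Nfkb1 and Ikbkb turn positive on average.

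Other genes differed along the same bins. Ccl3, a chemokine gene, stood at 32923, 32037, 33922 and 37629.5 CPM in the lowest bin of tags 3, 4, 1 and 2 and at 5255, 6033, 6392 and 6859 CPM in the highest. Elane and Chil3, markers of immature neutrophils, were concentrated in the highest bin, where 18.9, 23.3, 22.6 and 27.0% of cells held a molecule of either, against 0.754 to 6.47% in the other bins. Without those cells, a choice made after the data were seen, Icam1 and Bcl2a1a kept mean log2 ratios of 2.43 and 2.06, and 6 members were higher in the lowest bin in every tag. C1qb, a macrophage gene, stood at 5.37 to 50.4 CPM in the lowest bin and 5.24 to 60.8 CPM in the highest. The 10 macrophage list genes counted in all tags summed to 45171 to 56026 CPM in the lowest bin and 85495 to 94176 CPM in the highest. Over all neutrophils of tag 3, Cd14 alone made up 56740 of the 65427 CPM of that list. Lyz2, also on it, had a mean log2 ratio of lowest over highest bin of -4.63, and Cd14 -0.42. The gate had left out Lyz2-rich cells under 10% S100a8, a range that the lowest bin nearly fills. It had also left out cells rich in C1qa and C1qb or in Arg1 from every bin. The levels of Lyz2, C1qb and the macrophage list along the bins thus follow in part from the gate. The dendritic cell list, with 5 of its 9 markers counted in all tags, ran with the gradient. It summed to 2209, 2499, 1556 and 2142.05 CPM in the lowest bin of tags 3, 4, 1 and 2 and to 192.9, 308, 583 and 499 CPM in the highest, nearly all of it H2-Aa, a class II antigen presentation gene, with Il12b, Flt3, Ccr7 or Fscn1 at 0 in some tags. Without the neutrophils that held H2-Aa or H2-Eb1, also a choice made after the data were seen, the mean log2 ratio was 2.48 for Icam1 and 2.03 for Bcl2a1a, and 6 members were higher in the lowest bin in every tag. Median depth without S100a8 was 777 to 836 molecules per cell in the lowest bin and 1022 to 1069 in the highest. Thinning to 300 molecules left 7 members higher. The part of the other differences in the gradients was not tested.

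Neutrophils were also split by their own Tnf. After thinning to 300 molecules, cells with at least 3 Tnf molecules numbered 751, 131, 297 and 177 in tags 3, 4, 1 and 2, and cells with 0 numbered 2098, 352, 733 and 469. Cells with Tnf had more of nearly every other member. For Nfkbia the Tnf-rich cells had 51873, 54332 and 74115 CPM in tags 3, 4 and 2, against 34136, 34508 and 44925 CPM in cells without Tnf, which is 1.52-, 1.57- and 1.65-fold. For Bcl2a1a they had 4466, 4239, 8559.8 and 7078 CPM in tags 3, 4, 1 and 2, against 2326, 2131, 4043 and 3916 CPM, which is 1.92-, 1.99-, 2.12- and 1.81-fold. Icam1 was 1.79-, 1.27-, 2.54- and 2.39-fold and Nfkb2 1.65-, 1.46-, 2.15- and 2.34-fold the level of cells without Tnf.

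Of the 9 members other than Tnf, 8 were higher in the Tnf-rich cells in every tag, against 20.9% of 354 measured genes, and Nfkb1 was the exception at 0.868-fold in tag 4. Many measured genes had too few molecules for a ratio in every tag and could not count. The share is therefore not matched to the abundance of the members. The median log2 ratio was 0.52 over these members and 0.19 over the measured genes. S100a9 stood at 0.935- to 1.04-fold, and the housekeeping gene Gapdh at 0.789- to 0.918-fold. Genes outside the members also rose in every tag, among them Cxcr2 and Cd52 with mean log2 ratios of 0.53 and 0.52. Others fell in every tag, among them Ccl4 (-0.29) and Hmox1 (-1.49). Fth1, at 173856 to 295103 CPM a large part of the denominator, stood at 0.728- to 0.896-fold. Other inflammatory genes did not all follow, with Ccl3 at 0.630- to 1.07-fold and Il1b at 0.932- to 1.31-fold. The Tnf-rich cells had median S100a8 fractions of 28.2, 31.9, 23.6 and 20.7%, against 23.4, 25.0, 20.1 and 19.4% in cells without Tnf. Their median depths were 932, 906, 1010 and 878 molecules, against 879, 908.5, 908 and 867. The part of S100a8 content, depth and Fth1 in these ratios was not tested.

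**Figure D4:**
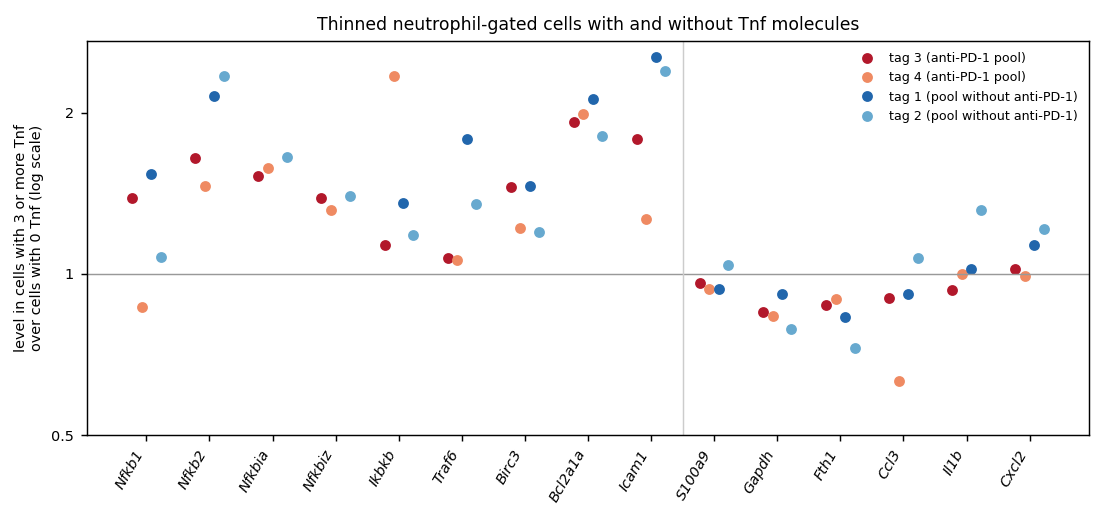
Fold difference between thinned neutrophils with at least 3 Tnf molecules and those with 0, on a log scale, 1 point per tag, for 9 members (left of the line) and 6 other genes (right). The points of Bcl2a1a lie between 1.81 and 2.12, and those of S100a9 between 0.935 and 1.04.

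The comparison of the 2 pools asked how the members differed where anti-PD-1 had been given. A member was called where the tags of the pools did not overlap and a factor of 1.5 or more separated the closest ones, in classes with 30 or more cells per tag. The cartridge and the treatment cannot be told apart, and each ratio is of the mean of tags 3 and 4 over the mean of tags 1 and 2. In neutrophils, 1 of the 8 members counted in all tags was called lower in the anti-PD-1 pool, against 6.76% of 296 genes, and 0 higher, against 6.08%. The called member was Bcl2a1a, with 3050.0 (2999 to 3102) and 3045 (2925 to 3169) CPM in tags 3 and 4, against 5048 (4941 to 5156) and 4919 (4785 to 5056) CPM in tags 1 and 2. Its log2 ratio was -0.71, with nearest tags 1.61-fold apart.

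The other targets differed less. Icam1 had 1124 and 1097 CPM in the anti-PD-1 pool, against 1590.3 and 1572 CPM in the pool without anti-PD-1 (log2 ratio -0.51). Birc3 had 1431 and 1429.8 CPM against 1658 and 1751 (-0.25), and Tnf 4419 and 4617 CPM against 4975 and 4921 (-0.13). The IkappaB genes lay lower in both anti-PD-1 tags than in tag 2, the only other tag that counts them: Nfkbia by -0.48 and Nfkbiz by -0.32 on the log2 scale. Nfkb2 ran the other way, with 209 and 236 CPM against 167 and 157 (0.46). The tags of the pools lay apart for 7 of the 8 members, against 69.3% of genes, and for both IkappaB genes, against 76.3% of the 59 genes of tags 2 to 4. Of the IkappaB genes 0 of 2 were called, against 10.2% of those 59 genes lower and 3.39% higher. For 6 of the 8 members both anti-PD-1 tags were the lower ones, against 41.9% of genes, and for both IkappaB genes, against 54.2%. Separation was thus near that of the panel, with most of the members on the lower side.

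The median log2 ratio over all 355 measured genes in neutrophils was -0.10. It was -0.27 with S100a8 in the denominator, -0.02 after TMM scaling and 0.02 without S100a8, S100a9 and Fth1, and the share of lower genes among those called was 56.5, 73.7, 44.9 and 40.4% under these 4 scalings. The log2 ratio of Bcl2a1a was -0.88, -0.63 and -0.59 under the 3 alternatives, and the last lost the call, as did the stricter gate at -0.65. Neutrophils of the anti-PD-1 pool held more of the highest S100a8 bin, 23.9 and 26.3% of cells, against 15.2 and 14.7%. Given the same mix of bins in every tag, Bcl2a1a had a log2 ratio of -0.56 and nearest tags 1.44-fold apart, so the call was lost while the direction stayed. Within bins its log2 ratio ran from -0.71 in the lowest to -0.18 in the highest, where the tags of the pools overlapped. Nfkbia and Nfkbiz, with tag 2 alone as comparison, had log2 ratios of -0.63 to -0.38 and -0.33 to -0.15. No share over all genes was computed within bins. The tumour list genes counted in all tags (Lgals1, Lmna and Fn1) summed to 1141 and 1432 CPM in neutrophils of tags 3 and 4, against 3229 and 3109 CPM in tags 1 and 2. Bcl2a1a itself stood at 94.5 to 354 CPM in tumour cells, below its neutrophil level in either pool. In C1q-positive macrophages it stood at 12066 to 14175 CPM and in CD4 T cells at 10152 to 15490 CPM, above that level. Macrophage markers summed to 65427 and 67758 CPM against 63947 and 66507, of which Cd14 made up 56740 CPM in tag 3. Across the bins C1qb ran from 5.24 to 12.4 CPM in tag 3 and 0 to 12.0 in tag 4. In tag 1 it ran from 21.2 to 57.9 CPM and in tag 2 from 20.6 to 60.8. Arg1 ran from 29.5 to 44.5 CPM in tag 3 and 0 to 37.4 in tag 4. In tag 1 it ran from 84.8 to 181 CPM and in tag 2 from 114 to 170. The part of RNA from other cells in the Bcl2a1a values was not tested.

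**Figure D5:**
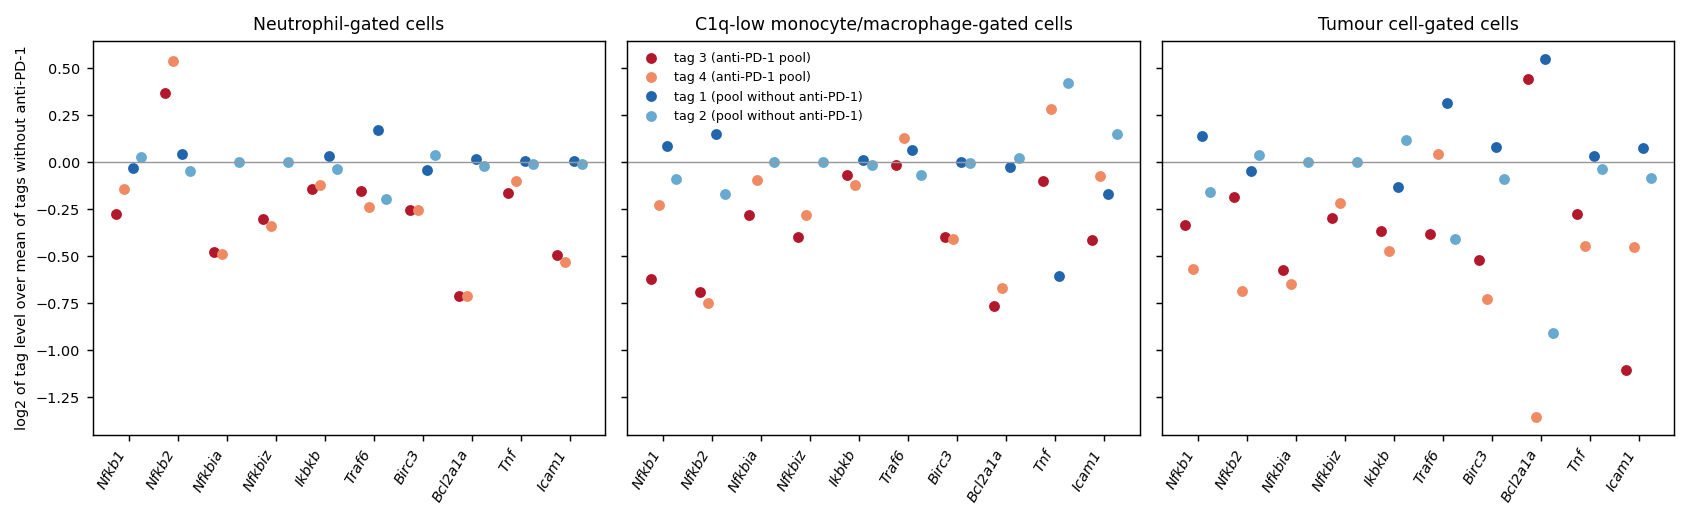
Log2 of each tag's level over the mean of the tags without anti-PD-1, for the 10 genes in 3 gated classes. Tags 3 and 4 of Bcl2a1a lie near -0.71 in neutrophils and between -0.76 and -0.67 in C1q-low monocytes or macrophages, and overlap the other pool in tumour cells. Nfkbia and Nfkbiz have tag 2 alone as comparison.

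In C1q-low monocytes or macrophages the called member was again Bcl2a1a, 1 of 8 lower against 6.76% of 222 genes, and 0 were higher, against 1.80%. It stood at 5094 and 5433 CPM in tags 3 and 4, against 8485 and 8799 CPM in tags 1 and 2 (log2 ratio -0.72, nearest tags 1.56-fold apart). TMM scaling ended this call (log2 ratio -0.54), as did leaving S100a9 and Fth1 out of the denominator with S100a8 (-0.62). The tumour list genes Lgals1, Lmna and Fn1 summed to 29510.3 and 29687 CPM in these cells of tags 3 and 4. In tags 1 and 2 they summed to 48034 and 39591 CPM. Bcl2a1a was at most 354 CPM in tumour cells, but 12066 to 14175 CPM in C1q-positive macrophages and 10152 to 15490 CPM in CD4 T cells. The part of RNA from other cells in the Bcl2a1a values was not tested. Dendritic cell markers summed to 16309 and 29936 CPM, against 25334 and 36355 CPM, and the pools overlapped. Nfkb2 had 168 and 162 CPM against 302 and 242 from 24 to 57 molecules per tag, and the tags of 5 of the 8 members lay apart, against 42.8% of genes. In all 5 the anti-PD-1 tags were the lower ones, against 30.6% of genes. Of the IkappaB genes 0 of 2 were called, against 12.0% of 50 genes lower and 6.00% higher. Both lay apart (74.0% of genes) on the lower side (50.0%), Nfkbiz by -0.34 and Nfkbia by -0.18, which became 0.05 with TMM scaling. For 1 of the 5, Ikbkb, the log2 ratio of -0.09 turned to 0.09 with TMM scaling. Without tag 2, 2 of the 8 members left were called, against 19.9% of 216 genes.

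In tumour cells 0 of 8 members were called, against 8.73% of 229 genes lower and 5.68% higher. The tags lay apart for 6 of 8 members, all lower in the anti-PD-1 pool, against 59.4% of genes apart and 40.2% lower in this way. Of the IkappaB genes 0 of 2 were called, against 8.70% of 46 genes lower and 26.1% higher. Both lay apart (78.3% of genes) on the lower side (41.3%). Leaving out a tag raised the calls over all genes as well. Without tag 3, 3 of 10 members were called, against 31.2% of genes, without tag 4 it was 1 of 10, against 21.7%, and without tag 2 it was 1 of 8, against 34.1%. Nfkbia had 12357 and 11771 CPM in tags 3 and 4, against 18405 CPM in tag 2, and Icam1 131 and 207 CPM, against 298.8 and 267 CPM in tags 1 and 2. In C1q-positive macrophages, with as few as 17 cells and no calls made, Tnf had 1915 and 1135 CPM in tags 3 and 4, against 3994 and 3664 CPM in tags 1 and 2. Neutrophil markers in these macrophages were lower in the same tags, at 1433 and 232 CPM against 3751 and 1639 CPM. So were NK cell markers, at 113 and 90.3 CPM against 395 and 993 CPM. The 3 tumour list genes counted in all tags, Lgals1, Lmna and Fn1, were lower too, at 45334 and 32568 CPM against 57404 and 64999 CPM. They also summed to 29759 to 69203 CPM in CD4 and CD8 T cells. Dendritic cell markers were higher, at 58206 and 69907.5 CPM against 38969 and 34308 CPM. The part of RNA from other cells in the Tnf values was not tested. The tags of Bcl2a1a overlapped there.

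A list of 94 further pathway genes (receptors, adaptors, ligands, subunits and targets) had 50 members in the panel, none of them the 9 other subunits and inhibitors. In neutrophils 4 of its 41 measured genes were called lower in the anti-PD-1 pool, against 7.32% of 355 genes, and 1 higher, against 5.63%. Il1b, which encodes interleukin 1 beta, had 474 and 496 CPM in tags 3 and 4, against 872 and 909.8 CPM in tags 1 and 2. Cxcl1, a neutrophil chemoattractant gene, had 392 and 493 CPM against 1060.4 and 862, and Il6 had 14 and 7 molecules against 69 and 47, a log2 ratio of -2.84. Both were far higher in other cells. Cxcl1 stood at 12657 and 9959 CPM in tumour cells of tags 3 and 4, against 17622 and 23574 CPM in tags 1 and 2, and Il6 at 677 and 344 CPM in C1q-low monocytes or macrophages, against 714 and 3534 CPM. The part of such RNA in the neutrophil values was not tested. Il33, with 2 to 13 molecules per tag, was the remaining lower gene, and Il18r1, the interleukin 18 receptor gene, with 8 to 75 molecules, the higher one. The list's median log2 ratio was -0.22, beside -0.10 for all genes, and along the S100a8 bins 16 of the 41 were higher and 5 lower in the lowest bin in every tag, against 20.3 and 26.2% of genes, with a median of 0.67.

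In C1q-low monocytes or macrophages 3 of 32 genes of the list were called lower, against 7.72% of 272 genes, and 0 higher, against 2.57%. They were Il1b, with 306 and 479 CPM against 741 and 757, the chemokine gene Ccl4, with 6252 and 6202 CPM against 10342 and 12687, and the maturation marker Cd83, with 2537 and 2609 CPM against 4299 CPM in tag 2. With TMM scaling 1 gene of the list was called. The median was -0.25, beside -0.19 for all genes. In tumour cells 1 of 33 was called lower, against 8.73% of 275 genes, and 2 higher, against 9.09%. These were Il1rn (lower), Ccl5 and Cd40 (higher), named after their values were seen. Ccl5, a T cell chemoattractant gene, had 351 and 639 CPM in tags 3 and 4, against 110.2 and 63.0 CPM in tags 1 and 2. T cell markers summed to 31.5 and 34.9 CPM in these tumour cells, against 51.6 and 75.0 CPM. Dendritic cell markers were higher in the anti-PD-1 tags, at 15797 and 17426 CPM against 4697 and 8915 CPM. The neutrophil list, summed without S100a8, was also higher, at 4993 and 4466 CPM against 3725 and 3512.5 CPM. Its gene S100a9 ran the other way, at 112 and 123 CPM against 323 and 246 CPM. So did S100a8, at 5156 and 5015 CPM against 7567 and 6725 CPM. The part of such RNA in these values was not tested.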

How the data were processed

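Single cells of 4T1 tumours were measured with a targeted mRNA panel on 2 cartridges, each holding 2 sample tags. The deposited tables hold counts of molecules per cell and gene, and per the file headers the maker was the BD Rhapsody Targeted Analysis Pipeline, version 1.12.1. The submitters' processing notes also name Seurat 3.2.0. No source used here gives the aligner or the build.

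Counts were summed per tag and gated class with Python 3.11.15, numpy 2.4.6, pandas 2.3.3 and scipy 1.17.1, and scaled to 396 shared genes without S100a8. TMM factors came from edgeR 4.0.16 (R 4.3.3). Neutrophils held at least 1% S100a8 and 2 further marker molecules, under 2% Lgals1 and fewer than 3 Arg1 molecules, and Lyz2-rich cells under 10% S100a8 were left out. Other classes held minimum marker counts and under 5% S100a8. Of the neutrophils, 190 lay at 1 to 2% S100a8 and 559 at the marker minimum, and 4 cells passed 2 gates. No doublet caller was run. Genes needed 30 molecules for the pool comparison.

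With 1 cartridge per pool nothing was tested. Intervals are exact Poisson (levels) at 95%. The members and lists were chosen with earlier results of these data known. Gate thresholds were set with an exploratory clustering after member values had been seen, and so were the Arg1 and Lyz2 exclusions, which took neutrophils to 7401 from 7496. Named genes were all members, pathway genes called in neutrophils or macrophages, and the 3 genes most like each member. Alternatives covered denominators, gates, bins, depth, fold limits and single tags.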

Additional observations from a re-analysis of the deposited data

How the results depend on the processing

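The sign of a single member's log2 ratio turned under an alternative in 1 of 60 values for neutrophils over CD4 T cells, 3 of 110 along the S100a8 bins and, between pools, 1 of 128 in neutrophils, 12 of 108 in C1q-low cells and 7 of 108 in tumour cells. The pool values that turned were all of members not called. The others were Birc3 in neutrophils over CD4 T cells (log2 0.15 without S100a8, S100a9 and Fth1 in the denominator) and, with S100a8 in the denominator, Nfkb1 (0.87), Tnf (0.98) and Ikbkb (0.64) along the bins, where the median of all genes was 1.17. Members with 1 leading class in every tag numbered 3, against 1 with S100a8 in the denominator and 5 without the 5% of cells with most molecules. By share of cells at equal depth they were 3 as well, with Nfkb2 in NK cells in place of Nfkbia in neutrophils. The count along the bins stayed between 6 and 10 around 7.

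In neutrophils 1 of 10 members was called between pools (46 of 355 measured genes), against 3 with S100a8 in the denominator (16.0% of genes), 0 without S100a8, S100a9 and Fth1 (13.2%), 5 at 1.2-fold (33.8%), 0 at 2-fold (5.35%), 0 under the stricter gate (14.1%) and 0 with the same mix of S100a8 bins (11.3%). Each tag left out in turn gave 1 (20.5 to 22.3%). In C1q-low monocytes or macrophages the count of 1 (10.3%) became 0 with TMM scaling (8.46%), 0 without S100a8, S100a9 and Fth1 (8.82%), 4 at 1.2-fold (24.6%), 0 at 2-fold (2.21%) and 2 under the stricter gate (11.0%), and 1 to 2 with a tag left out (16.3 to 23.2%). Their pathway list count of 3 became 1 with TMM scaling. In tumour cells the count of 0 (17.8%) became 3 at 1.2-fold (36.0%), 2 under the stricter gate (21.2%), 4 without the 5% of cells with most molecules (21.2%), and 0 to 3 with a tag left out (21.7 to 34.1%). The cause of these differences was not tested.

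The exclusions from the neutrophil gate and the removal of cells with Elane or Chil3, or with H2-Aa or H2-Eb1, were chosen after seeing the data. Each of the first 2 left the neutrophil count of called members at 1. No paired analysis was possible because each pool is 1 cartridge, tags carry no arm and no replicate number links them. Depth limits the small classes most: NK cells had 10 cells in tag 1.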
